A study of Mus musculus with 6 samples.

Results

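Genes of the T helper 1 (Th1) programme, the interferon gamma-producing state of helper T cells, were followed across the study. They were 10 genes, of which 10 were measured: the transcription factor genes Tbx21, Eomes, Runx3, Hlx and Stat4, the receptor genes Il12rb1, Il12rb2, Il18r1 and Il18rap, and the cytokine gene Ifng. They were chosen by name, as all probe sets whose platform annotation gives exactly 1 gene symbol that is on this list. This gave 13 probe sets of the 45101 on the array, and all 13 passed the filter on dim probe sets. Eomes, Il18rap and Runx3 have 2 probe sets each and the other genes 1 each.

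The RNA was from cultured mouse CD4+ T cells (helper T lymphocytes) of spleen, peripheral lymph nodes and mesenteric lymph nodes. Arrays were made in pairs for Control, RA and Ro (RO on the label of its replicate 2), 2 for each group. The series title names retinoic acid, a vitamin A metabolite usually abbreviated RA, and the labels expand neither RA nor Ro. No strain, age or dose of RA or Ro is stated for any array. A culture protocol is attached to Control replicate 2 only: 5 days with TGFb1, IL6, IL21, IL23, IL1b, TNFa and IL2, and with antibodies against IL4 and, at 10 ug/ml, IFNg. Whether the other arrays share that medium is not stated. Replicates are numbered in the titles, with no word on whether cultures or animals were separate. The p-values therefore cover the spread of these 6 arrays alone, which may be technical.

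Values are array signals in arbitrary units, and the number of arrays limits their precision. Array medians ran from 16.3 to 23.8. Control replicate 2 stood apart: across probe sets its log2 values correlated with those of the other arrays at 0.911 to 0.917, against 0.961 to 0.972 among the other 5. Its signal for Eif2s3y, a gene on the Y chromosome, was 0.972, and the other 5 arrays had 748 to 967. Xist, the RNA of the inactive X chromosome, read 680.2 on Control replicate 1 and 4326 on Control replicate 2, while RA and Ro had 13.1 to 22.7, so both Control arrays differed from RA and Ro in transcripts of the sex chromosomes. Values against Control are therefore given for each Control array. The T cell label was borne out by its markers: 7 of 7 annotated T cell genes exceeded the 40th percentile of the array on all 6 arrays, with Cd3e, a chain of the T cell receptor complex, between 1010 and 2728 and the coreceptor gene Cd4 between 463 and 1791. These are bulk samples, in which fewer cells of a type and less RNA per cell cannot be told apart.

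Th1 cells are the helper cells that make interferon gamma. In their differentiation IL12 binds a receptor of the Il12rb1 and Il12rb2 products and activates STAT4, while T-bet, the product of Tbx21, acts on Ifng and on Il12rb2 itself. IL18 acts through a receptor of the Il18r1 and Il18rap products and, together with IL12, drives interferon gamma release. Runx3 acts with T-bet at Ifng, Eomes is a T-box factor related to T-bet that is best known in CD8 and natural killer (NK) cells, and Hlx is a homeobox factor that cooperates with T-bet.

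Setting RA against Ro asks which of these genes differed between cultures with those labels. The receptor genes, Runx3 and Tbx21 had lower signals in RA: for 6 of 10 genes (Tbx21, Runx3, Il12rb1, Il12rb2, Il18r1 and Il18rap) both RA arrays lay below both Ro arrays, on the probe set that represents the gene. Of all 12986 genes tested, 37.7% did so, and signals in RA were lower in general, with a median log2 difference of -0.21 over all probe sets. With each array centred on its median the same 6 genes were lower without overlap, against 20.2% of all genes. None of the 10 was higher in RA without overlap, against 6.31% of all genes. None of these differences passed the test: limma fitted to all 6 arrays called 0 of 29507 probe sets (0%) at an adjusted p of 0.05, with a lowest adjusted p of 0.245 and with 496 (1.68%) at an unadjusted p under 0.05. Among the 13 probe sets of the list 3 had an unadjusted p under 0.05, both of Runx3 and that of Il12rb2. Fitted to only the 4 arrays of RA and Ro, limma called 12 probe sets (0.043%) and none of the list, and 2030 (7.28%) had an unadjusted p under 0.05, among them 7 of the 12 probe sets of the list that were tested there. The median log2 difference of the 10 genes, relative to that of all probe sets, was -1.07, against -0.03 over all genes tested.

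**Figure D1:**
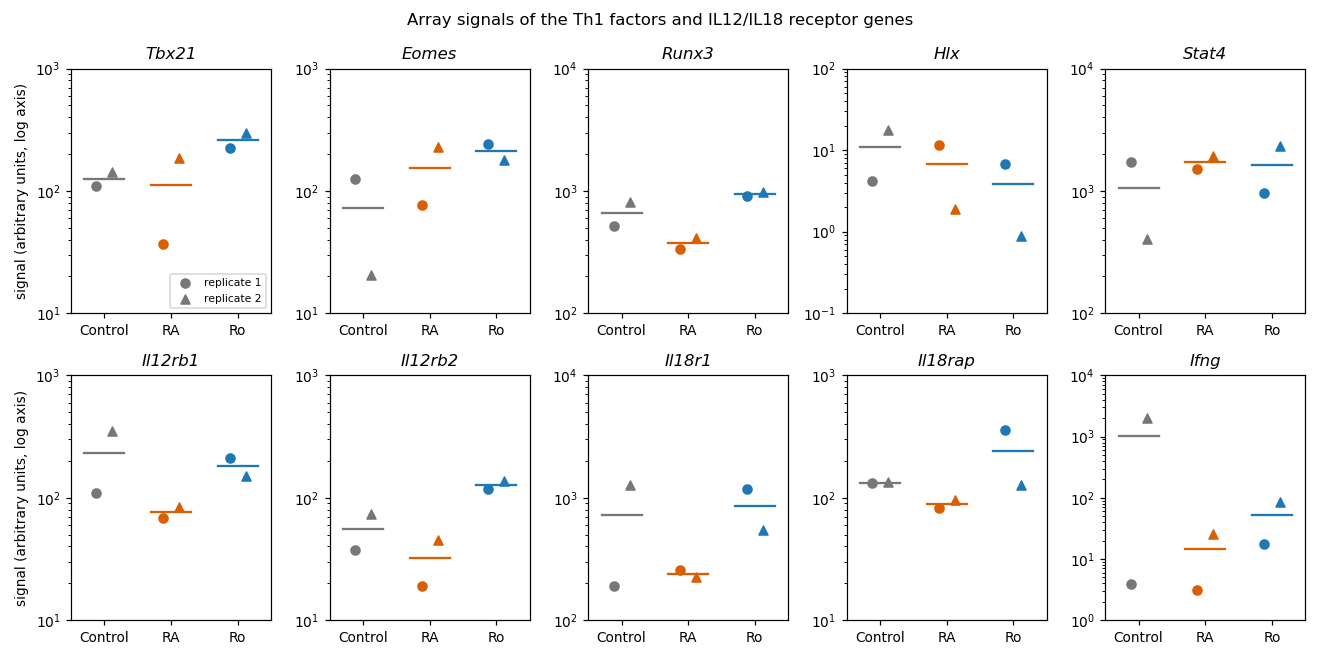
Signal of the representative probe set of each of the 10 genes on each array, in arbitrary units on a log axis, with circles for replicate 1, triangles for replicate 2 and a bar at the group mean (n = 2). Both RA points lie below both Ro points for Tbx21, Runx3, Il12rb1, Il12rb2, Il18r1 and Il18rap, and Ifng stands at 2054 on Control replicate 2 alone.

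Tbx21 encodes T-bet, the factor that defines the Th1 state. RA stood at 36.8 and 185, Ro at 223 and 299.5, and Control at 109.7 and 143. The RA arrays differed 5.03-fold from each other, more than the 2.36-fold between the mean signals of Ro (261 ± 54.1, SD, n = 2) and RA (111 ± 105, SD, n = 2), and RA replicate 1 was the low array. The log2 difference of RA minus Ro, relative to the median of all probe sets as are all those below, was -1.38 (SE 0.71, limma adjusted p = 0.999). It was -0.33 without RA replicate 1 and -2.44 without RA replicate 2.

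Eomes, the related T-box factor, did not separate the groups. On its brighter probe set RA stood at 76.1 and 230.2, and Ro at 240.4 and 180.3. The other probe set had the same order of the arrays within each group, where RA stood at 49.4 and 162 and Ro at 213 and 146. As for Tbx21, RA replicate 1 was the low array of its group, and RA replicate 2 lay between the Ro arrays on both probe sets. The log2 differences were -0.42 (SE 0.85) and -0.73 (SE 0.84), and the first turned to 0.29 without RA replicate 1.

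Runx3, a Runt-domain factor that binds at Ifng together with T-bet, had the smallest SE of the 10 genes. Its brighter probe set read 336 and 409 in RA and 913 and 972 in Ro, a 2.53-fold difference of the means (942 ± 41.3 against 373 ± 51.8, SD, n = 2 each). The dimmer probe set read 37.6 and 32.0 in RA and 71.2 and 88.4 in Ro, a 2.29-fold difference of the means. The 2 probe sets thus gave the same direction and nearly the same size, and on both the groups were apart. Their log2 differences were -1.12 (SE 0.36, unadjusted p = 0.00692 in limma's fit of all 6 arrays) and -0.91 (SE 0.39, unadjusted p = 0.0216 in the same limma fit), with an adjusted p of 0.999 for each. With each of the 6 arrays left out in turn the first ranged only from -1.20 to -1.05.

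Stat4, which carries the IL12 signal to the nucleus, showed no such pattern. It stood at 1517 and 1925 in RA and at 955 and 2318 in Ro. The Ro arrays enclosed the RA arrays, and the log2 difference of 0.41 (SE 0.70) turned to -0.15 without Ro replicate 1. Hlx was dim, at 11.7 and 1.89 in RA and 6.72 and 0.887 in Ro, and it exceeded the 40th percentile, which lay between 9.54 and 12.6, on only 2 of 6 arrays. No difference of Hlx could be read at such signals.

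Of the IL12 receptor, Il12rb2, the chain that STAT4 binds and that marks Th1 cells, had the largest fold between RA and Ro among the 10 genes. RA stood at 19.1 and 45.6, and Ro at 117 and 137. The means were 32.3 ± 18.7 and 127 ± 14.0 (SD, n = 2 each), a 3.93-fold difference. The RA arrays differed 2.38-fold from each other and still lay well below both Ro arrays. The log2 difference was -1.77 (SE 0.54, unadjusted p = 0.00732 and adjusted p = 0.999 in the limma fit of all 6 arrays), and -1.77 (SE 0.42, unadjusted p = 0.0017 and adjusted p = 0.526) in the limma fit of the 4 arrays. It was -1.27 without RA replicate 1 and -2.27 without RA replicate 2.

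Il12rb1, the chain shared by the receptors for IL12 and IL23, stood at 67.8 and 84.8 in RA, and at 212 and 151 in Ro. Here the replicate arrays were close in both groups, and the means differed 2.38-fold (181 ± 42.8 against 76.3 ± 12.03, SD, n = 2 each). The log2 difference was -0.99 (SE 0.58 with all 6 arrays and 0.31 with the 4 arrays, where the unadjusted p of limma was 0.00556 and the adjusted p 0.631). Both chains of the receptor were therefore lower in RA by value while Stat4, which acts below them, was not.

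The IL18 receptor genes Il18r1, the ligand-binding chain, and Il18rap, its accessory chain, are neighbours in the RefSeq gene table of the mouse (GRCm38.p6), as are Il12rb2 and Il23r, which was not analysed here. Il18r1 read 255 and 224 in RA and 1183 and 542 in Ro, a 3.60-fold difference of the means. The brighter Il18rap probe set read 82.8 and 96.4 in RA and 355 and 127 in Ro, a 2.69-fold difference. For both genes Ro replicate 1 was the highest array of RA and Ro, and for both the RA arrays lay within 1.16-fold of each other. The other Il18rap probe set, where RA stood at 35.1 and 40.01 and Ro at 87.0 and 38.2, was high on Ro replicate 1 only, and its groups overlapped. The log2 differences were -1.52 (SE 0.84) for Il18r1 and -1.01 (SE 0.53) for Il18rap. Without Ro replicate 1 they were -0.88 and -0.21, and without Ro replicate 2 they were -2.13 and -1.79.

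Other cells in the culture can also carry IL18 receptors, and markers of mast cells and basophils were lower in RA by value too. The 7 markers of that list summed to 1539 and 1409 in RA and to 5799 and 3838 in Ro. The sum was highest on Ro replicate 1, while Cma1, Fcer1a and Kit were higher on Ro replicate 2. Of these markers, 7 of 7 lay lower in RA without overlap, on signals and on centred arrays, against 37.7% and 20.2% of all genes. In the limma fit of the 4 arrays, which called 0.043% of probe sets, 1 of them was called, Cma1 (adjusted p = 0.024). Cma1, the mast cell chymase, stood at 38.9 ± 7.05 in RA and 505 ± 18.7 in Ro, and Cpa3, a mast cell carboxypeptidase, at 376 ± 8.72 and 1561 ± 213 (SD, n = 2). Their part in the Il18r1 and Il18rap values was not tested. On Control replicate 2, where the same 7 markers summed to only 162, Il18r1 stood at 1268, the highest of the 6 arrays, while the Il18rap probe sets stood at 135 and 28.5, the latter the lowest of the 6. The markers summed to 3851 on Control replicate 1. There Il18r1 stood at 191, the lowest of the 6 arrays, and the Il18rap probe sets at 131 and 62.6. The 7 annotated NK cell markers, of which 2 exceeded the 40th percentile on all arrays, summed to 729 and 780 in RA, 2476 and 1167 in Ro and 1476 and 2802 in Control. In these sums Tyrobp read 327 and 262 in RA, 827 and 358 in Ro and 814 on Control replicate 1. Fcer1g read 144.5 and 145 in RA, 501 and 178.5 in Ro and 370.5 on Control replicate 1. Tyrobp ranked the 6 arrays as the mast cell and basophil sum did, and so did Fcer1g but for the RA arrays. Klrk1, an activating receptor, read 11.4 and 21.9 in RA and 191 and 39.6 in Ro, and Klrd1, a chain of NK receptors, 223 and 322 against 887 and 565.5. Ncr1, the defining NK receptor, was below the 40th percentile on all 6 arrays (7.38 to 11.9). Of the CD8 T cell markers Cd8a read 4.29 and 6.47 in RA and 15.5 and 23.2 in Ro, and Cd8b1 54.6 and 86.7 against 124 and 164. On Control replicate 2 Klrk1 read 627, Klrd1 2060 and Cd8a 236.5, each the highest of the 6 arrays, and on Control replicate 1 they read 25.8, 232 and 11.4. Klre1 was also highest on Control replicate 2, at 86.6. Tyrobp, Fcer1g and Cd244a of the NK list were instead lowest there, at 4.68, 6.78 and 7.94. Cd8b1 read 124 on Control replicate 1 and 85.0 on Control replicate 2. The 5 myeloid markers summed to 438 and 400.4 in RA, 889 and 322 in Ro and 1575 and 116 in Control, and the 4 annotated B cell markers to between 51.4 and 108.9 on all arrays. The part of these cells in the Th1 values was not tested.

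Ifng itself was dim in RA and Ro. It read 3.15 and 25.5 in RA and 17.6 and 85.5 in Ro, so the groups overlapped. The log2 difference of -1.48 had an SE of 2.34 in the limma fit of all arrays and of 0.87 in that of the 4 arrays, where the adjusted p was 0.676.

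**Figure D2:**
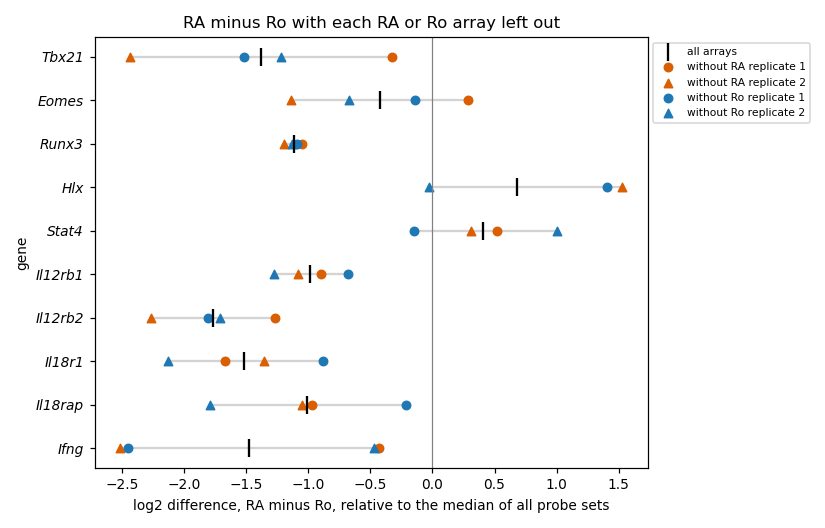
Log2 difference of RA minus Ro for each gene, relative to the median of all probe sets, with all arrays (black bar) and with 1 RA array (orange) or 1 Ro array (blue) left out, circles for replicate 1 and triangles for replicate 2. Runx3 stays between -1.20 and -1.05, whereas Tbx21 spans -2.44 to -0.33 and Eomes and Stat4 cross 0. Hlx has no point where it fell below the filter.

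The starts of these genes were read for motifs because 6 of the 10 genes lay lower in RA than in Ro without overlap. Of all genes 37.7% did so, and none of the 10 passed the test. RefSeq promoter windows (GRCm38.p6) were found for 9 of the 10 genes, and not for Il12rb1. The 250 bases before the most upstream start are shown for the 4 genes whose every probe set was lower in RA than in Ro without overlap and that have a window, 5′ to 3′ on the gene's strand. Capitals mark matches, on either strand, to the STAT motif TTCNNNGAA, the T-box core GTGTGA, the RUNX core TGTGGT or the retinoid receptor core AGGTCA, and no matches overlap.
Il12rb2 (chr6:67376189-67376438, minus strand): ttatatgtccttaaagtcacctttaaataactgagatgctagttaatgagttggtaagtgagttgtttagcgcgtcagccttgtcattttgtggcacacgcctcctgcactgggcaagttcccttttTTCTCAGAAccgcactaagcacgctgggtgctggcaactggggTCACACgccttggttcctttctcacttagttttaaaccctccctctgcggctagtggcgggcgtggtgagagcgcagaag
Il18r1 (chr1:40465302-40465551, plus strand): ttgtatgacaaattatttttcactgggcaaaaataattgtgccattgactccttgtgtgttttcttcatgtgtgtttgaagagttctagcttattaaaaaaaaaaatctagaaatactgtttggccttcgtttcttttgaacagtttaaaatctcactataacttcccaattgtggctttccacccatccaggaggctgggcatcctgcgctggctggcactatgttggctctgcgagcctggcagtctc
Runx3 (chr4:135120395-135120644, plus strand): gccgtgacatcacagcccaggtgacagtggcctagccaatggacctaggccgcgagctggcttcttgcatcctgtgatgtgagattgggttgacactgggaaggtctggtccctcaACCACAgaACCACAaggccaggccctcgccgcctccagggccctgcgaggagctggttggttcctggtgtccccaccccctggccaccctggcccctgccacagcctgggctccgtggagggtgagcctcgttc
Tbx21 (chr11:97115332-97115581, minus strand): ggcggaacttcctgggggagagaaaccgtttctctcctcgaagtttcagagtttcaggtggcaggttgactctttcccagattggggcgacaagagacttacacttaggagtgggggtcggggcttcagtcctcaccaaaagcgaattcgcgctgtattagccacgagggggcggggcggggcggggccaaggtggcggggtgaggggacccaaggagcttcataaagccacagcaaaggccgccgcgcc
The Il12rb2 window held 1 STAT motif, whose first base lies 123 bases before the start, and 1 T-box core, at 80 bases before it, written here from the opposite strand. The Runx3 window held 2 RUNX cores, at 134 and 126 bases before the start, also written from the opposite strand. The windows of Il18r1 and Tbx21 shown held none of the 4 motifs. Il18r1 and Runx3 have other starts: the most downstream Il18r1 window held 2 STAT motifs, at 219 and 152 bases before its start, and the other Runx3 window held none. Among genes that did not separate RA and Ro, the Ifng window held 1 STAT motif, at 249 bases before the start, and the most upstream Stat4 window held the 1 retinoid receptor core found in the list, at 69 bases before the start. The windows of Eomes, Hlx and Il18rap held none. Among 32851 windows of this length over all genes, 7.02% held the STAT motif, 12.3% the T-box core, 14.0% the RUNX core and 14.0% the retinoid receptor core. A match is a description of the letters, not of binding, and a window with no match says only that these letters are not in it.

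The wider pathway was described through lists of other genes. Of 13 annotated genes of IL12, IL18 and interferon gamma signalling, 0 were called, 9 lay lower in RA than in Ro without overlap and 1 lay higher, with a median log2 difference of -0.25. Socs1, a feedback inhibitor of cytokine signalling, read 183 and 198 in RA and 350 and 472 in Ro (-0.87, SE 0.52). Ifngr2, a chain of the interferon gamma receptor, was the 1 that lay higher, at 203 and 220.4 in RA and 126 and 160.2 in Ro (0.78, SE 0.43). Of 13 annotated Th1 effector and surface genes, 0 were called and 9 lay lower without overlap, or 5 on centred arrays, with a median of -0.63. Havcr2, an inhibitory receptor of Th1 cells, read 1.10 and 8.87 in RA and 48.4 and 19.7 in Ro, and Xcl1, a chemokine, 11.0 and 23.8 against 50.2 and 60.8. Both RA signals of Havcr2 lay below the 40th percentile of their array (9.54 and 11.7), which limits what size of difference can be read. These lists, like the 10 genes, are set against 37.7% of all genes lower without overlap, and 20.2% on centred arrays.

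The remaining lists were read in the same way, against the same shares of all genes. Of 7 tested cofactors and regulators of the Th1 programme 0 were called, 4 lay lower in RA without overlap, or 1 on centred arrays, and the median was -0.04. Zeb2, a transcriptional repressor of effector T cells, read 5.76 and 13.8 in RA and 24.4 and 18.1 in Ro, and Runx1, the relative of Runx3, 395 and 234.5 against 247 and 204. On RA replicate 1 Zeb2 lay below the 40th percentile of the array (9.54). The log2 difference of Runx1 was 0.65 (SE 0.52), opposite in sign to that of Runx3, and its groups overlapped. Il18bp, the secreted inhibitor of IL18, read 27.9 and 40.8 in RA and 53.0 and 70.3 in Ro, and Il12a, a chain of IL12, was dim throughout, at 2.20 to 20.9. Of 3 tested genes of the ligand list 1 lay lower without overlap, Il18bp. Among 3 other tested genes of the IL1 receptor family 1 lay lower, Il1r2, a decoy receptor, at 11.4 and 19.2 in RA and 52.0 and 55.8 in Ro (-1.46, SE 1.10). Il1rap, the accessory chain of IL1 receptors, read 56.2 and 79.7 in RA, and 58.1 and 78.9 in Ro. Of 4 tested factors of other helper states 3 lay lower without overlap, or 2 on centred arrays, and Foxp3 lay higher, with a median of -0.24. Foxp3 read 44.2 and 40.1 in RA and 36.7 and 21.3 in Ro, and Rora 87.2 and 147 against 153 and 199.7. None of these passed in limma.

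**Figure D3:**
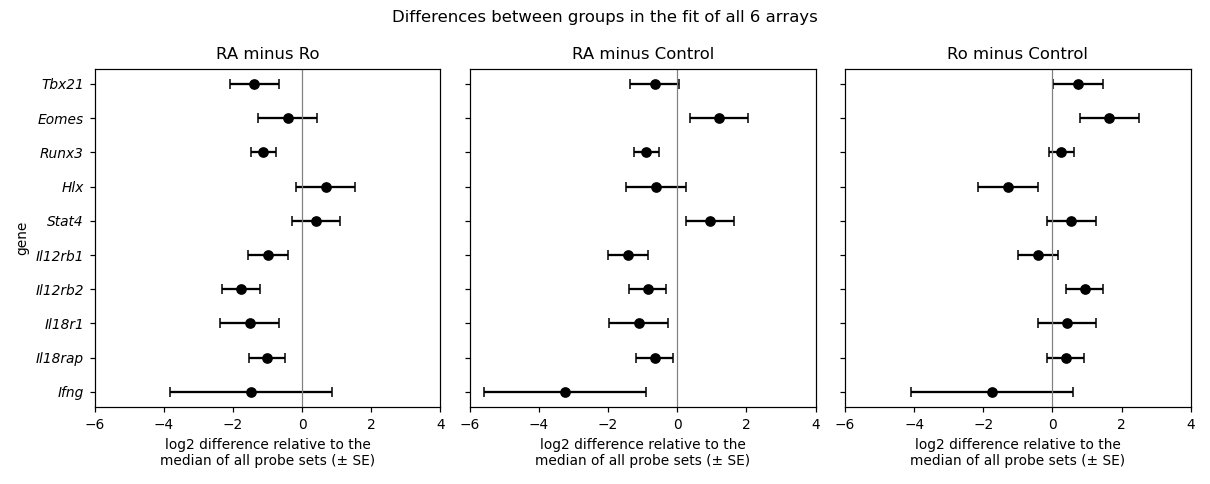
Log2 difference of each gene in the limma fit of all 6 arrays, relative to the median of all probe sets, for the 3 comparisons, with bars for 1 SE. In RA minus Ro the values of Il12rb2 (-1.77), Il18r1, Tbx21, Runx3, Il18rap and Il12rb1 lie at or below -0.99, and the bar of Ifng (SE 2.34) is the widest in every panel.

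The comparison of RA with Control asks the same of cultures with those labels, with Control replicate 2 unlike the other Control array. The RA arrays also serve in the comparison with Ro. Il12rb1, Il18rap and Runx3 lay lower in RA than in Control without overlap (3 of 10 genes, against 15% of all genes, or 10.6% on centred arrays), and 0 of 10 lay higher, against 11.7%. On centred arrays 1 lay higher, Stat4, against 18.8% of all genes. No probe set was called by limma with all 6 arrays (0 of 29507, 0%, 535 or 1.81% at an unadjusted p under 0.05), and 0 in the limma fit of the 4 arrays compared (367 or 1.31% at an unadjusted p under 0.05).

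Runx3 read 336 and 409 in RA against 518 and 814 in Control on the brighter probe set, and 37.6 and 32.0 against 71.8 and 64.4 on the other, with log2 differences of -0.89 (SE 0.36) and -1 (SE 0.39). Both RA arrays were thus the lowest of the 6 on both probe sets. Il12rb1 read 67.8 and 84.8 in RA and 110.3 and 352 in Control (-1.43, SE 0.58), and Il18rap 82.8 and 96.4 against 131 and 135 (-0.65, SE 0.53). The other Il18rap probe set overlapped between RA and Control (-0.25, SE 0.56). For Il12rb1 the size depended on the Control array, at -0.33 without Control replicate 2 and -2.53 without Control replicate 1. For Runx3 the corresponding values were -0.28 and -1.48. These 3 genes remained lower without overlap when Control replicate 2 was left out, where 46.2% of all genes did so. With Control replicate 1 left out 7 of 10 genes lay lower, against 28.1%, and with RA replicate 2 left out 6 of 10, against 30.3%.

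Control replicate 2 carried most of what the other genes showed against Control. Ifng read 3.86 on Control replicate 1 and 2054 on Control replicate 2, the highest signal of this gene by far, on the array whose label lists an antibody against IFNg. Il18r1 read 191 and 1268 on these arrays, Il12rb1 110.3 and 352, Stat4 1716 and 405 and Eomes 126 and 20.7. Ifng, Il18r1 and Il12rb1 were thus high, and Stat4 and Eomes low, on that array. Cd8a, Klrk1, Klrd1 and Klre1 were also at their highest there, and Cd4 at its lowest. The NK list genes Tyrobp, Fcer1g and Cd244a were at their lowest there, and Cd8b1 was not at its highest. The log2 difference of RA minus Control for Ifng was -3.25 (SE 2.34) and turned to 1.15 without Control replicate 2, and that of Il18r1 went from -1.12 (SE 0.84) to 0.51. With Control replicate 1 left out, the differences were -7.64 for Ifng, -2.75 for Il18r1, -2.53 for Il12rb1, 2.16 for Eomes and 1.71 for Stat4. That fit compares RA with 1 array and assumes that it varies like the other groups, so its calls are not given.

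The comparison of Ro with Control gave 4 of 10 genes higher in Ro without overlap: Tbx21, Il12rb2, Runx3 and Eomes, against 30.7% of all genes. On centred arrays Runx3 dropped out and 3 remained, against 22.5%. None lay lower without overlap, against 8.5%. Limma called 0 of 29507 probe sets (0%) with all arrays and 0 with the 4 arrays, with 1201 (4.07%) and 544 (1.94%) at an unadjusted p under 0.05. Il12rb2 read 117 and 137 in Ro and 37.7 and 73.7 in Control (0.93, SE 0.54), and Tbx21 223 and 299.5 against 109.7 and 143 (0.74, SE 0.71). Eomes read 240.4 and 180.3 against 126 and 20.7 on the brighter probe set (1.65, SE 0.85), and the other probe set was apart in the same direction (1.91, SE 0.84). Runx3 was apart on its brighter probe set only (0.25, SE 0.36), and the other overlapped (-0.07, SE 0.39). With Control replicate 2 left out 7 of 10 genes lay higher in Ro, against 40.4% of all genes. Without Control replicate 2 the differences were 1.62 for Il12rb2, 1.17 for Tbx21 and 0.67 for Eomes, and without Control replicate 1 they were 0.21, 0.30 and 2.61.

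The order of the group means thus differed between genes. Il12rb2, Il18r1, Il18rap, Runx3 and Tbx21 stood highest in Ro, then in Control and lowest in RA, whereas Il12rb1 and Ifng were highest in Control through Control replicate 2. Eomes was lowest in Control and highest in Ro, and Stat4 lowest in Control and highest in RA. Neighbours in that order overlapped for RA and Control in Tbx21, Il12rb2 and Il18r1, and for Ro and Control in Il12rb1, Il18r1 and Il18rap. In Ifng, Eomes and Stat4 all neighbours in that order overlapped on signals.

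**Figure D4:**
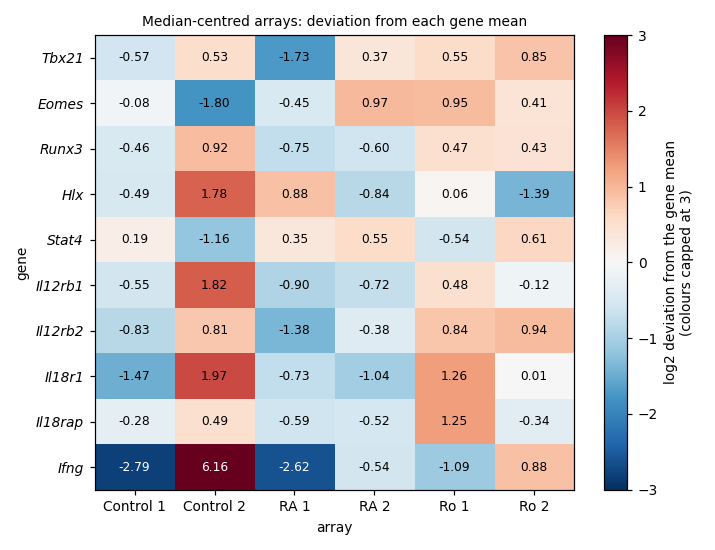
Log2 deviation of each gene from its own mean on each array, after each array was centred on its median, with colours capped at 3. Il12rb2, Runx3, Il12rb1, Il18r1, Il18rap and Ifng are below 0 on Control replicate 1 and both RA arrays, and Stat4 and Eomes are the genes below 0 on Control replicate 2.

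Among themselves the 10 genes were compared by the root mean square (RMS) difference of these deviations over the 6 arrays, as a description. The closest pairs were Tbx21 with Il12rb2 (0.39), Il12rb2 with Runx3 (0.41) and Il12rb1 with Runx3 (0.44). Stat4 and Eomes, both low on Control replicate 2, were nearer to each other (0.77) than to any other member. The paired IL18 receptor chains differed by 0.82 and the IL12 receptor chains by 0.67. Ifng was far from all others, at 2.21 or more. Over 12985 other genes, those nearest to Tbx21 were Prune2 (0.11), Ifitm10 (0.25) and Tac4 (0.29), all with dim signals between 0.856 and 31.4. Those nearest to Il12rb2 were Gpr155 (0.24), Gbp2 (0.28) and Cmklr1 (0.29). Gbp2, a GTPase induced by interferon gamma, was the bright one, at 981 and 1460 in RA, 5410 and 3926 in Ro and 1366 and 3309 in Control. The median RMS difference over all genes was 0.95 from either.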

How the data were processed

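Each array was deposited as 1 linear intensity per probe set. MAS5 was used by the authors, according to the submitters' processing notes, with no version or scaling target stated. Gene names came from the platform annotation of GEO (34958 of 45101 probe sets with 1 symbol, 932 with several, 9211 with none), and Entrez IDs gave the same symbol for 10 of 10 genes. No genome build is named for the array. Some genes of the lists are not reported here.

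Signals were used as log2(signal + 2.999), the pseudocount being the 20th percentile of all values, which makes differences of dim genes look smaller. Control probe sets (64) were excluded, and testing required a signal over the array's 40th percentile on at least 2 arrays of the fit (29507 probe sets, 12986 genes). The test was limma 3.58.1 under R 4.3.3 (a linear model per probe set, eBayes with trend, two-sided, 3 residual degrees of freedom, no block), with Benjamini-Hochberg adjustment over all probe sets tested and a threshold of 0.05. Log2 differences are given relative to the median of all tested probe sets (RA minus Ro -0.21, RA minus Control 0.09 and Ro minus Control 0.29), while p-values test the difference before that median is taken off. An exact permutation test of 2 against 2 arrays cannot go below p = 0.333 and was not used. A gene was represented by its brightest tested probe set, avoiding probe sets marked as cross-hybridising. Named genes were the 10 members and, from each other list without calls, up to 2 with the largest difference in RA minus Ro, Cd3e and Cd4, and the 3 genes most like Tbx21 and Il12rb2 by RMS difference. The fit was tested on simulated data. The members, gene lists and tests were chosen with earlier results of these data known.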

Additional observations from a re-analysis of the deposited data

How the results depend on the processing

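Under the 11 settings that kept all arrays of a comparison no value of the 10 genes changed sign. These settings were a pseudocount of 1 or of the median, the replicate number as a block, a stricter filter (60th percentile) or none, variance without a trend, quantile normalization, only the 4 arrays compared (with and without that block), gene means and, added after seeing the data, centred arrays. By design, the block, the variance without a trend, the 4 arrays compared and the centred arrays left the log2 values almost unchanged. A sign could hardly change under those settings. Hlx had fewer settings, since it fell below some filters. In RA minus Ro the 4 arrays alone gave 12 called probe sets and no member. Leaving out Control replicate 1 or Control replicate 2 gave the same counts. These are nearly the same fit, since 1 remaining Control array adds nothing to the spread. Over all arrays left out in turn, the calls ran from 0 to 12 in RA minus Ro, from 0 to 4372 in RA minus Control and from 0 to 7211 in Ro minus Control, and called members from 0 to 0, from 0 to 6 and from 0 to 3, where the highest count for either comparison with Control came without Control replicate 1. With each array left out in turn, 6 to 8 members lay lower in RA than Ro without overlap, against 37.7% to 61.6% of all genes. The 8 came without RA replicate 2 (58.9%) and without Ro replicate 1 (61.6%). Lower in RA than Control were 3 to 7, against 15% to 46.2%. Of these counts, 7 came without Control replicate 1 (28.1%) and 6 without RA replicate 2 (30.3%). Higher in Ro than Control were 4 to 7, against 30.7% to 61.9%, with 7 without Control replicate 2 (40.4%).

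The replicate number as a block in a fit of the 4 arrays was added after seeing the data. In RA minus Ro limma then called 106 of 27878 probe sets and 3 members (Il12rb2, Il18r1 and Runx3, adjusted p 0.0386, 0.0331 and 0.0314). It called 56 of 27988 probe sets and 1 member (Ifng) in RA minus Control. In Ro minus Control it called 93 of 27979 probe sets and 0 members. The block changed no other call. The labels do not say that the numbers pair the arrays, and deviations of same-numbered arrays correlated at 0.249 for RA and Ro, 0.005 for Control and RA and -0.029 for Control and Ro. Whether the arrays were paired cannot be told from these values, and those with Control include Control replicate 2, which stood apart. With 1 array left out, 15 of 174 values of members changed sign. The 174 include values where the array left out belonged to the group not compared. Those values stayed almost the same by design, and all changes of sign came from the other values. In RA minus Control Hlx ran from -1.66 to 0.24, Ifng from -7.64 to 1.15, Il18r1 from -2.75 to 0.51 and Tbx21 from -1.71 to 0.38. In RA minus Ro Eomes ran from -1.14 to 0.29, Hlx from -0.03 to 1.53 and Stat4 from -0.15 to 1.00. In Ro minus Control Ifng ran from -6.13 to 2.59, Il12rb1 from -1.51 to 0.64, Il18r1 from -1.21 to 2.00, Il18rap from -0.41 to 1.16, Runx3 from -0.33 to 0.81 and Stat4 from -0.25 to 1.33. The cause was not tested. Signals near the 40th percentile, as of Hlx and of Ifng on Control replicate 1 and RA replicate 1, limit what size of difference can be read.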

Other observations

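Control replicate 2, the array with Ifng at 2054, was also high for other Th1 effector genes, which were named after their values were seen. Lta, the gene of lymphotoxin alpha, read 3952 there and 105 to 185 on the other 5 arrays, and Tnf, the tumour necrosis factor gene, 1311 against 68.8 to 115. The chemokine genes Ccl4 and Ccl3 read 4126 and 3221, with at most 185 and 266 elsewhere, and Il2, the T cell growth factor gene, 2288 with at most 61.0 elsewhere. Fasl, Cxcr3 and Ccl5, a death ligand, a chemokine receptor of Th1 cells and a chemokine, went the other way by value. They read 28.5, 92.7 and 68.4 there, and 176 to 287, 146 to 489 and 263 to 663.5 elsewhere. Markers of other cell types were mixed on that array. Cd8a read 236.5 there and 4.29 to 23.2 elsewhere, Klrk1 627 against 11.4 to 191 and Klrd1 2060 against 223 to 887. Klre1, of the NK list, was also highest there, at 86.6. Tyrobp, Fcer1g and Cd244a, of the same list, were lowest there, at 4.68, 6.78 and 7.94. Cd8b1, at 85.0, lay within the range of the other arrays. Cd4 read 463 there and 1141 to 1791 elsewhere. The part of other cell types in these values was not tested. Gata3, the Th2 factor, read 84.4 there and 780 to 1043 elsewhere.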
